A study of Mus musculus with 6 samples.

Results

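The genes described here are 50 mouse genes whose products select and open replication origins, copy DNA at the fork, supply its nucleotides or time its entry into S phase. They were chosen by function, as a module of named genes, from 24404 genes listed, with earlier results of these data known. All 50 reached the minimum mean of 10 normalised counts that a gene needed to be tested. RNA was sequenced from biliary epithelial cells (BECs), the cells that line the bile ducts, isolated from the intrahepatic ducts of adult C57BL/6 mice given the cholestatic liver toxin DDC for 1 week. The Klf5 LKO group comprised 3 libraries with the genotype Alfp-CreTg/+;Klf5flox/flox, and the control group comprised 3 libraries with the genotype Alfp-Cre+/+;Klf5flox/flox. Both groups therefore carried floxed alleles of Klf5, which encodes a zinc-finger transcription factor, and both had the DDC injury; the Cre transgene was present in the Klf5 LKO group alone. Alfp-Cre combines albumin and alpha-fetoprotein regulatory sequences and is active in hepatocytes as well as BECs, so the deletion was not restricted to the cells sequenced. No label states that each library is 1 animal, so the p-values measure the spread between these libraries, which may be technical.

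DNA replication starts in 2 steps. In G1 the origin recognition complex, Cdc6 and Cdt1 load the MCM helicase onto DNA in an inactive form, and in S phase Cdc45 and the GINS complex join it to form the active helicase. Polymerase alpha and its primase then start each strand, the clamp loader RFC places the sliding clamp PCNA, polymerases delta and epsilon extend the strands, and Fen1 and Lig1 finish the lagging strand. Ribonucleotide reductase, thymidylate synthase and thymidine kinase make the deoxynucleotides, and the E2F transcription factors, released from the retinoblastoma proteins once cyclin-dependent kinases phosphorylate these, drive many of these genes. Normal adult BECs seldom divide, and in DDC-fed mice they enter the cell cycle as the ducts expand in a ductular reaction.

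E2F proteins bind a short site often written as TTTCCCGC or TTTGGCGC. Because the module includes both the E2F genes and many genes known as their targets, promoter stretches are shown for 5 members whose window held an exact match to TTTCCCGC, TTTGGCGC, TTTCGCGC or TTTGCCGC on either strand and whose stretch lay outside any annotated gene body. The sequences are from RefSeq, build GRCm38.p6, read 5′ to 3′ on the gene's strand, with the matches in capitals. The stretches are Mcm6, chr1:128359741-128359820, minus strand; Mcm5, chr8:75109322-75109401, plus strand; Dtl, chr1:191575545-191575624, minus strand; Pola1, chrX:93632250-93632329, minus strand; and E2f7, chr10:110745205-110745284, plus strand.
Mcm6: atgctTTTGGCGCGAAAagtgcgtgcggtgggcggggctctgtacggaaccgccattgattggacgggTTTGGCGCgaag
Mcm5: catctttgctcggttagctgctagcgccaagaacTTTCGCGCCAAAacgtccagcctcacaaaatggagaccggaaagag
Dtl: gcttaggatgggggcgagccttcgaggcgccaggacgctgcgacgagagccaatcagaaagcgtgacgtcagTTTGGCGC
Pola1: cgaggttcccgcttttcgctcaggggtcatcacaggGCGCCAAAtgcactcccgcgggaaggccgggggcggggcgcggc
E2f7: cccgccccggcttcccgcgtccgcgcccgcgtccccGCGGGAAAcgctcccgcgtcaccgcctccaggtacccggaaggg
In Mcm6 and Mcm5 matches on opposite strands overlap, so that 1 capital run holds 2 of them; Mcm6 has another match nearer its start. Rrm2, the member with the smallest p-value below, had no such match in its window. Its last 120 bases before the RefSeq start, chr12:24708134-24708253, plus strand, are shown with a CCAAT box, the site of the factor NF-Y, in capitals. The GENCODE position of Rrm2, given below, begins inside this stretch.
Rrm2: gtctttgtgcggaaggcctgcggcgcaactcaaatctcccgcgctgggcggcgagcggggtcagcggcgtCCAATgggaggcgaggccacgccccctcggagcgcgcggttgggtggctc

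Values are normalised counts, the reads of a gene divided by its library's size factor. As a check of the genotype, Klf5 had 977, 1192 and 1183 in Klf5 LKO libraries, against 2056, 2018 and 2316 in control libraries, and its log2 fold change was -0.93 (SE 0.14, adjusted p = 0.0103). Without control 1, control 2 or control 3 the adjusted p was 0.0625, 0.0681 or 0.0540, with a log2 fold change between -0.98 and -0.84 over all left-out libraries. The groups did not overlap; exons that Cre leaves in place still give reads, so the remainder is not a measure of undeleted cells. Total reads per library were 17161087 to 24784167 in Klf5 LKO and 11726934 to 20066745 in control libraries, where control 2 was the shallowest. The BEC marker Epcam averaged 25017 ± 1441 in Klf5 LKO and 27512 ± 1936 in control (SD, n = 3 each), and the log2 fold change of Krt19 was -0.74 (adjusted p = 0.0988). RNA of hepatocyte, leukocyte and stellate or pericyte marker genes was also present, and is given with the library pattern below.

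Rrm2, the small subunit of ribonucleotide reductase, fell in Klf5 LKO and was the one member of the 50 to pass an adjusted p of 0.05. No member passed in the upward direction. By the same test 0.489% of all 13490 tested genes were called lower and 0.163% higher, together 0.652%; 1 called gene is too few to set the list's share against that background. At an unadjusted p under 0.05, 24 of the 50 had lower values in Klf5 LKO, against a background of 5.92%, and none had higher values, against 4.95%. Because the list was chosen with earlier results of these data known, the shares here and below describe it and do not test it. The tests were limma fits across all genes on log2(normalised count + 1), and DESeq2, edgeR and limma-voom on the reads also called no member higher. On the reads, edgeR and limma-voom called Rrm2 alone lower, against backgrounds of 0.489% and 0.437%.

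Most members had a lower mean in Klf5 LKO. This held for 46 of 50 on the log2 scale, against 50.8% of all tested genes, and the median log2 fold change over the members was -0.42, against -0.01 over all tested genes. In 18 members every Klf5 LKO library was below every control library, against a background of 7.88%, and in no member was every Klf5 LKO library above, against 7.72%. Without Klf5 LKO 2 or control 3, which leaves fewer libraries to separate, 33 or 29 members did not overlap, against 15% or 13.8% of all tested genes. The members' log2 fold changes ran between -1.90 and 0.11, and 4 were above 0, those of Orc1, Orc6, Rfc2 and Rpa3. In bulk RNA, fewer cells in S phase and less replication RNA per cell cannot be told apart.

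**Figure D1:**
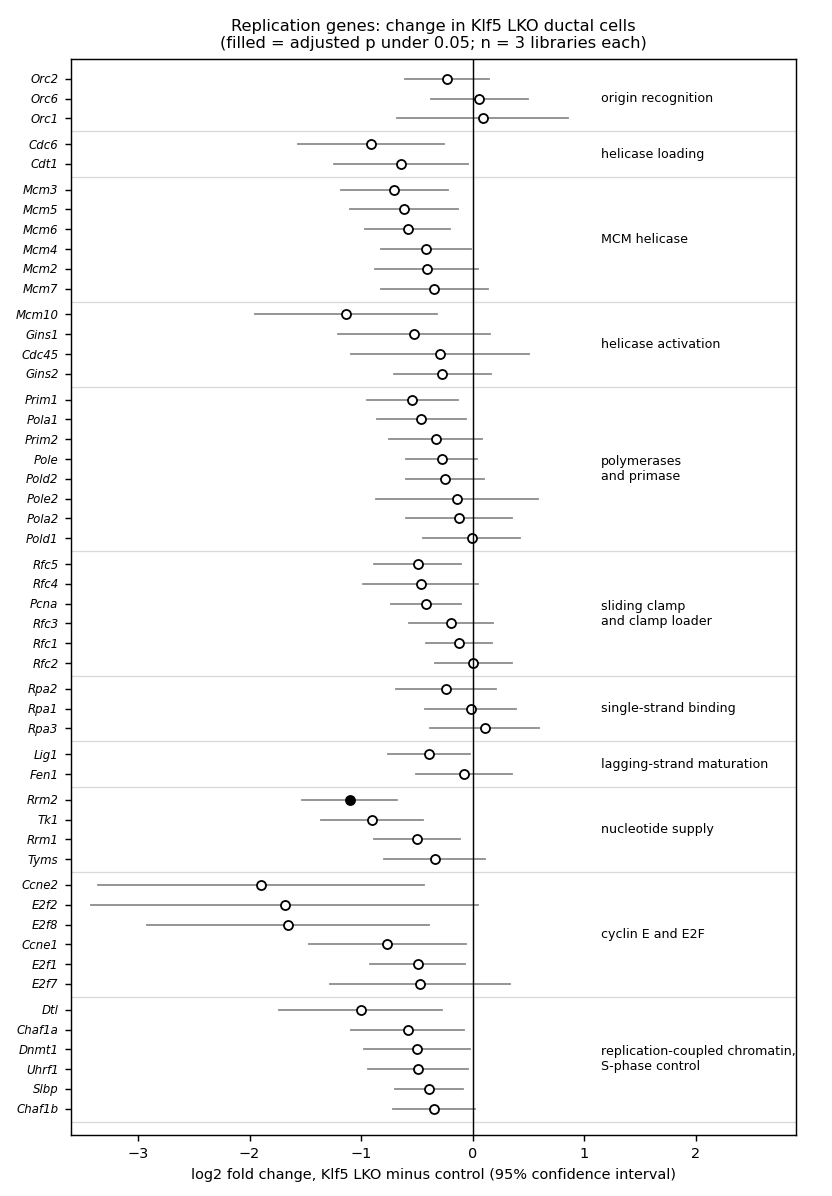
Log2 fold change, Klf5 LKO minus control, of each of the 50 members, grouped by role; circles are limma estimates from 3 libraries in each group, filled where the adjusted p was under 0.05, bars are 95% confidence intervals and the vertical line marks 0. The estimates run between -1.90 for Ccne2 and 0.11 for Rpa3, and Rrm2 is the one call.

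The call count depended on the test. DESeq2 on the reads called 4 members lower, Rrm2, Tk1, Mcm6 and Dtl, against a background of 1.52%, and the authors' deposited table also gave these 4 an adjusted p under 0.05, against 1.51%. Across the alternative fits and left-out libraries the adjusted p of Tk1 lay between 0.00916 and 0.401, that of Mcm6 between 0.0432 and 0.625, and that of Dtl between 0.0488 and 0.696.

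Nucleotide supply held the members with the smallest p-values. Rrm2 (chr12:24708241-24714146, plus strand, mm10) had 729.6, 599 and 483 normalised counts in the Klf5 LKO libraries, against 1376, 1489 and 1029 in the control libraries. Every Klf5 LKO library lay below the lowest control library, and the mean was 604 ± 123 in Klf5 LKO and 1298 ± 239 in control (SD, n = 3 each). The log2 fold change was -1.10 (SE 0.20, 95% confidence interval -1.53 to -0.68, adjusted p = 0.0273 in limma), a level 2.15-fold lower. The call was kept without Klf5 LKO 1 (adjusted p = 0.0123) or control 3 (0.0377) and was lost without Klf5 LKO 2 (0.0610), Klf5 LKO 3 (0.0962), control 1 (0.151) or control 2 (0.162), with the log2 fold change between -1.26 and -0.95.

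Tk1, the thymidine kinase of the salvage pathway, had 278, 373 and 282 in Klf5 LKO, against 533, 689 and 518 in control libraries. Its groups did not overlap, and its log2 fold change of -0.90 (SE 0.21, adjusted p = 0.0935) did not pass in limma. The large reductase subunit Rrm1 had 2176, 2076 and 1532 in Klf5 LKO, against 2608, 3346 and 2233 in control libraries, also without overlap, and the log2 fold change was -0.50 (SE 0.18, adjusted p = 0.304). Tyms, thymidylate synthase, averaged 701 ± 74.3 in Klf5 LKO and 909 ± 247 in control (SD, n = 3 each; log2 fold change -0.34), and its groups overlapped.

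Rrm2 was lower relative to Rrm1 in every Klf5 LKO library than in any control library. The log2 ratio of Rrm2 to Rrm1 was -1.58, -1.79 and -1.66 in Klf5 LKO libraries, against -0.92, -1.17 and -1.12 in control libraries, a difference of -0.61 with no overlap. A two-sided exact permutation test gave p = 0.1, the smallest that 3 against 3 libraries allow, and 0.2 after adjustment over 6 pairs. The pairs were chosen after their values were seen, so these p-values describe the separation and do not test it. Tk1 over Tyms (difference -0.56) and Rfc5 over Rfc2 (difference -0.50) also did not overlap and gave the same p-values. Pola1 over Pola2, E2f8 over E2f7 and Mcm6 over Mcm7 overlapped.

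None of the origin recognition or helicase loading genes passed. Orc1 and Orc6, subunits of the complex that marks origins, had log2 fold changes of 0.09 and 0.06, and Orc2 had -0.23. Orc1 had 165, 127 and 170.4 in Klf5 LKO, against 211, 159.6 and 88.4 in control libraries; Orc6 had 793, 505 and 574 in Klf5 LKO, against 521, 621 and 629 in control libraries. The groups overlapped in both. Orc2 had 844, 592 and 777 in Klf5 LKO, against 828, 863 and 879.9 in control libraries, again with overlap.

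Cdc6, the ATPase that recruits MCM with the origin recognition complex, had 218, 346 and 147 in Klf5 LKO, against 369, 515 and 392 in control libraries. The groups did not overlap, and the log2 fold change was -0.91 (SE 0.30, adjusted p = 0.266). Cdt1, its partner in loading, had 359.9, 479.9 and 267 in Klf5 LKO, against 554, 785 and 406 in control libraries; Klf5 LKO 2 exceeded control 3, and the log2 fold change was -0.64 (SE 0.27, adjusted p = 0.423). Geminin, the Cdt1 inhibitor, is not a member; Gmnn had 178, 285 and 200 in Klf5 LKO, against 375, 485 and 328 in control libraries (log2 fold change -0.85, adjusted p = 0.210).

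All 6 subunits of the MCM helicase had lower means in Klf5 LKO, with log2 fold changes between -0.70 and -0.35. None passed in limma. Mcm6 (chr1:128331590-128359664, minus strand), whose promoter stretch is printed above, had 3554, 4952 and 3590.3 in Klf5 LKO, against 5090.0, 7613 and 5480.4 in control libraries. Its groups did not overlap, and the log2 fold change was -0.58 (SE 0.17, adjusted p = 0.208). Mcm3 had 1390.2, 1778 and 1033 in Klf5 LKO, against 1999, 3008 and 1831 in control libraries, also without overlap, at -0.70 (SE 0.22, adjusted p = 0.233). Mcm5 had 1186, 1801 and 1098 in Klf5 LKO, against 2080.1, 2674 and 1522 in control libraries (log2 fold change -0.62, adjusted p = 0.313). Mcm2, Mcm4 and Mcm7 had log2 fold changes of -0.41, -0.42 and -0.35. In these 4 subunits the groups overlapped, since Klf5 LKO 2 exceeded control 3.

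Per kilobase of the principal transcript, Mcm6 was the most abundant member, at 1386 in Klf5 LKO and 2083 normalised counts per kilobase in control. The other MCM subunits lay at 403 to 569 in Klf5 LKO and 541 to 752 in control, although the subunits enter the helicase in equal numbers. Pcna came next to Mcm6 at 1380.0 in Klf5 LKO and 1856 in control, and E2f2 was lowest at 3.60 in Klf5 LKO and 10.8 in control. The part of uneven coverage along a transcript in these levels was not tested.

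**Figure D2:**
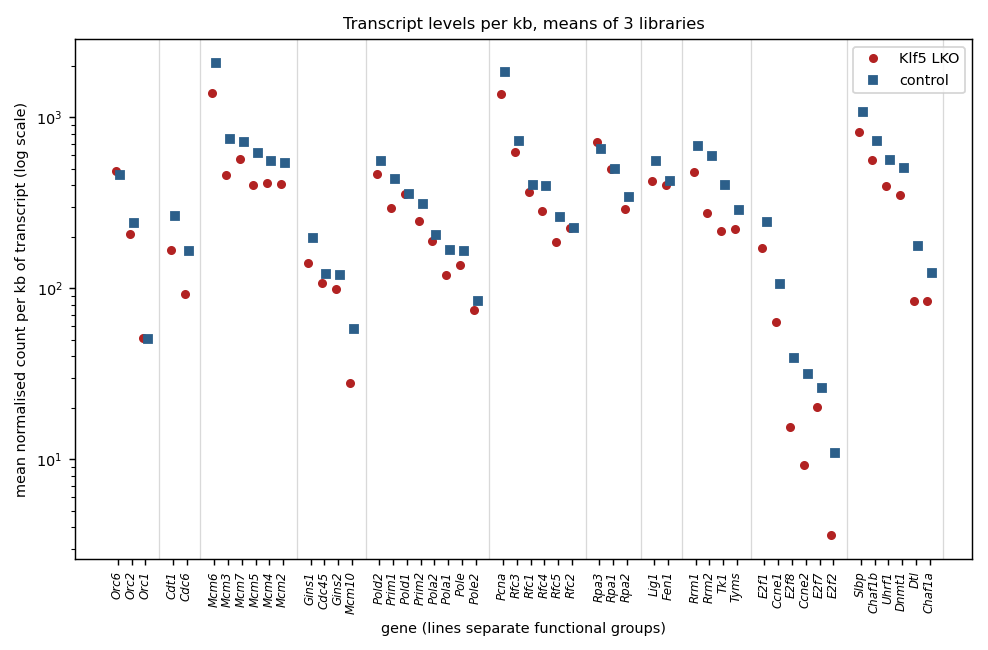
Mean of 3 libraries for each member, in normalised counts per kilobase of its principal transcript on a log axis, with Klf5 LKO as circles and control as squares; genes run along the horizontal axis and grey lines separate roles. Mcm6 and Pcna have the highest levels and E2f2 the lowest, and the control symbol is the upper one for most members.

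Among the genes that activate the helicase, Mcm10, which is needed for the helicase to unwind DNA, had 113, 216 and 78.8 in Klf5 LKO, against 227, 382 and 239 in control libraries. Its groups did not overlap, and the log2 fold change was -1.13 (SE 0.37, adjusted p = 0.266). Gins1 had 107, 203 and 146 in Klf5 LKO, against 223, 258 and 167 in control libraries, and Klf5 LKO 2 exceeded control 3 (log2 fold change -0.53, adjusted p = 0.594). Cdc45 had 324, 252 and 111 in Klf5 LKO, against 312, 256 and 209 in control libraries, with overlap (log2 fold change -0.29, and 0.16 without Klf5 LKO 3). Gins2, another GINS subunit, had 372, 377 and 405 in Klf5 LKO, against 492, 539 and 378 in control libraries, and Klf5 LKO 3 exceeded control 3 (log2 fold change -0.27). Gins2 shares 70.7% of its exon bases with Gse1, so reads of these 2 genes may not be separable.

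The 8 polymerase and primase genes all had lower means on the log2 scale in Klf5 LKO and none passed, with log2 fold changes between -0.54 and -0.01. Prim1, the catalytic primase subunit, had 421, 514 and 474 in Klf5 LKO, against 645, 823 and 598 in control libraries (log2 fold change -0.54, SE 0.19, adjusted p = 0.287). Pola1, the catalytic subunit of polymerase alpha, had 740.3, 585 and 604 in Klf5 LKO, against 783, 1095 and 798 in control libraries (log2 fold change -0.46, SE 0.18, adjusted p = 0.377). Neither gene's groups overlapped, nor did those of Pold2 and Pole, at -0.25 and -0.28. Prim2, Pola2 and Pole2, the partner subunits of primase, polymerase alpha and polymerase epsilon, overlapped at -0.33, -0.13 and -0.14. Pold1, the catalytic subunit of polymerase delta, had 1591, 1172 and 942 in Klf5 LKO, against 1074, 1468 and 1135 in control libraries. It averaged 1235 ± 329 in Klf5 LKO and 1226 ± 212 in control (SD, n = 3 each), and the sign of its log2 fold change differed between tests.

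Pcna, the sliding clamp (chr2:132249162-132253314, minus strand), had 1872, 2165 and 2248 in Klf5 LKO, against 2902, 3191 and 2357 in control libraries. Every Klf5 LKO library was below every control library, and the log2 fold change was -0.42 (SE 0.14, adjusted p = 0.287); 2 annotated pseudogenes of Pcna may take some of its reads. Of the clamp loader, Rfc5 had 517, 590.2 and 449 in Klf5 LKO, against 752, 793 and 639 in control libraries, without overlap (log2 fold change -0.49, adjusted p = 0.316). Rfc2 of the same complex had 1041, 1254 and 1102 in Klf5 LKO, against 1136, 1310.2 and 954 in control libraries, with overlap and a log2 fold change of 0.01 (95% confidence interval -0.34 to 0.35). The other loader subunits Rfc1, Rfc3 and Rfc4 overlapped, at log2 fold changes of -0.13, -0.20 and -0.47.

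The subunits of replication protein A, which coats single-stranded DNA, had log2 fold changes of -0.02 for Rpa1, -0.24 for Rpa2 and 0.11 for Rpa3, and all 3 overlapped. Rpa3 had 609, 348 and 488 in Klf5 LKO, against 468, 408 and 434 in control libraries, with a 95% confidence interval of -0.38 to 0.59 on its log2 fold change. Rpa1, the largest subunit, had 3320.2, 2245 and 2066 in Klf5 LKO, against 2225, 3065 and 2351 in control libraries, so that Klf5 LKO 1 was the highest of all 6. Rpa2 had 464, 623 and 488 in Klf5 LKO, against 599, 765 and 506 in control libraries. Replication protein A also serves in DNA repair outside S phase. Lig1, the ligase that seals Okazaki fragments, had 1099, 1549 and 1396 in Klf5 LKO, against 1493, 2017 and 1786 in control libraries, where only Klf5 LKO 2 reached into the control range (log2 fold change -0.39, adjusted p = 0.418). Fen1, the flap nuclease, had 987, 1078 and 784 in Klf5 LKO, against 1042, 1228 and 763 in control libraries (log2 fold change -0.08); 83.9% of its exon bases overlap other genes, among them Tmem258.

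**Figure D3:**
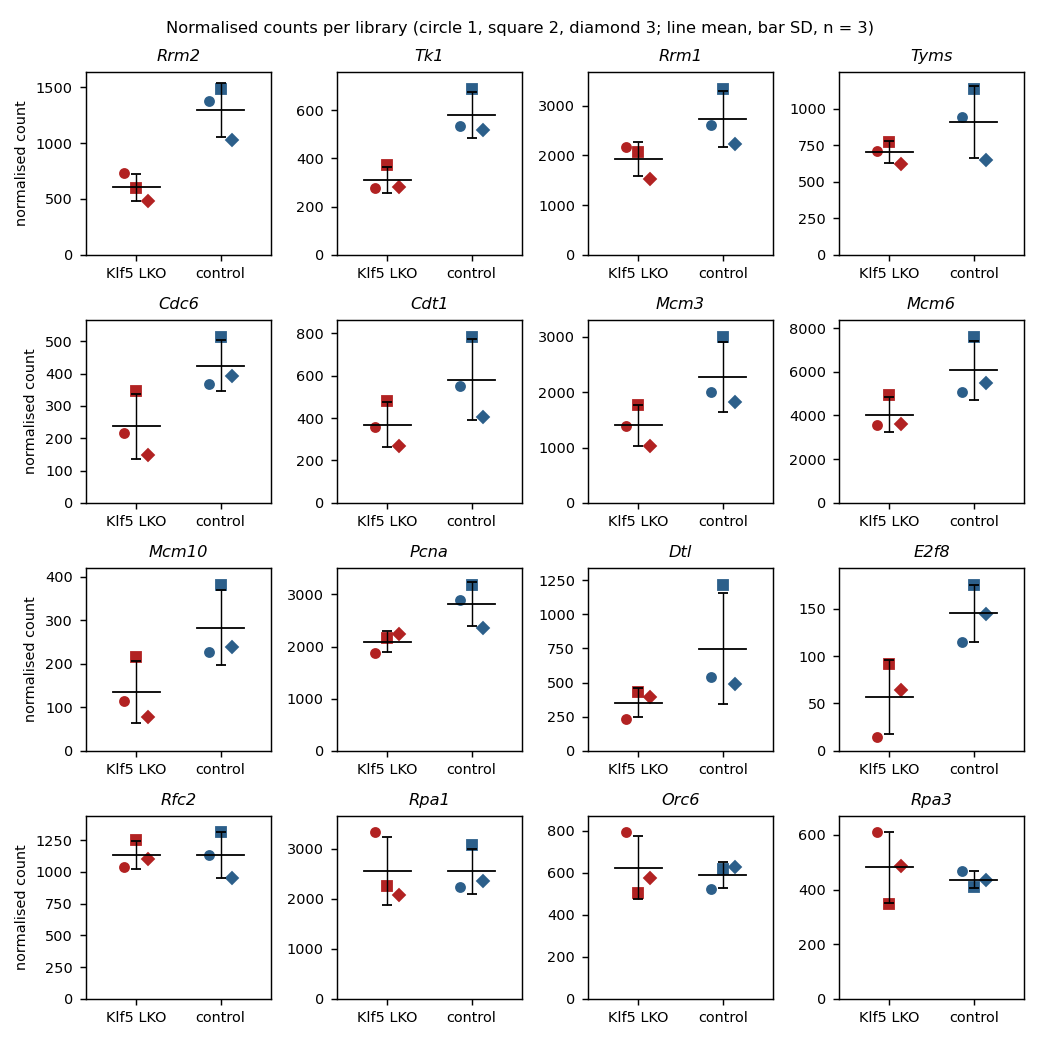
Normalised counts in each library, Klf5 LKO left of control, for 16 members of different roles; symbols are libraries (circle, square and diamond for replicates 1, 2 and 3), long horizontal lines are group means and bars are SDs (n = 3 each). Rrm2, Tk1 and Mcm6 have no overlap between groups, while Rfc2 and Rpa3 do.

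Ccne2, E2f2 and E2f8 had the most negative log2 fold changes of the 50 members, the largest standard errors and few reads. Ccne2, an S-phase cyclin, had 17.3, 55.9 and 10.6 in Klf5 LKO, against 45.1, 88.5 and 151 in control libraries; its log2 fold change was -1.90 (SE 0.67, adjusted p = 0.297), and Klf5 LKO 2 exceeded control 1. Its relative Ccne1 had 87.9, 174 and 121 in Klf5 LKO, against 233, 166 and 239.8 in control libraries (log2 fold change -0.77, adjusted p = 0.414), also with overlap.

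E2f8, an E2F that represses transcription, had 14.8, 91.7 and 63.9 in Klf5 LKO, against 115, 175 and 144 in control libraries. The groups did not overlap (log2 fold change -1.66, SE 0.58, adjusted p = 0.295), although Klf5 LKO 1 was far below the other libraries of its group; without it the log2 fold change was -0.89. E2f7, its partner, had 170.1, 91.7 and 69.2 in Klf5 LKO, against 145, 125 and 161 in control libraries, and Klf5 LKO 1 was the highest of all 6. The activator E2f1 had 398, 537 and 477 in Klf5 LKO, against 688, 752 and 553 in control libraries, without overlap (log2 fold change -0.50, SE 0.19, adjusted p = 0.363). E2f2 had 4.11, 26.8 and 20.2 in Klf5 LKO, against 72.6, 60.1 and 21.3 in control libraries; it overlapped, and Klf5 LKO 1 was near the 2.46 normalised counts that 3 reads are worth in that library. Its log2 fold change was -1.69 (SE 0.79, adjusted p = 0.475) and -0.94 without Klf5 LKO 1.

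Among the genes of replication-coupled chromatin and S-phase control, 5 of 6 had lower values at an unadjusted p under 0.05. The share over all tested genes was 5.92%, and none of the 3 origin recognition or 3 single-strand binding genes reached it. None of the 6 passed adjustment in limma. Dtl, the substrate receptor of the ubiquitin ligase that destroys Cdt1 in S phase, had 234, 429 and 397 in Klf5 LKO, against 538, 1219 and 492 in control libraries. The groups did not overlap, and control 2 was far above the other libraries; without it the log2 fold change was -0.59, against -1.003 (SE 0.33, adjusted p = 0.270) with it. Slbp, which binds the stem-loop of histone mRNA, had 1455, 1663 and 1565 in Klf5 LKO, against 2110.5, 2290.1 and 1769 in control libraries, without overlap (log2 fold change -0.39, SE 0.14, adjusted p = 0.304).

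Chaf1a, the large subunit of the chromatin assembly factor, had 528, 566 and 306 in Klf5 LKO, against 699, 719 and 615 in control libraries, without overlap (log2 fold change -0.58, adjusted p = 0.380); 48.6% of its exon bases are shared with Ubxn6. Chaf1b, the middle subunit, had a log2 fold change of -0.35 (adjusted p = 0.494), with overlap. Uhrf1, which brings the maintenance methyltransferase to new DNA, and Dnmt1, that enzyme, had log2 fold changes of -0.49 and -0.50, and in both Klf5 LKO 2 exceeded control 3. Dnmt1 had 1642, 2480.2 and 1578 in Klf5 LKO, against 2526, 3583 and 2017 in control libraries.

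The libraries of a group were not alike across the module. Control 2 was the highest of the 6 libraries in 37 of 50 members, and control 3 was the lowest control library in 32. Klf5 LKO 2 was the highest of its group in 33 members, and Klf5 LKO 1 and Klf5 LKO 3 were the lowest of all 6 in 19 and 21. Summed over the members, normalised counts were 42284, 48645 and 38664 in Klf5 LKO, against 53966, 68902 and 48812 in control libraries. Klf5 LKO 2 and control 3 therefore differed by little in sum, while all Klf5 LKO sums were below all control sums. Of the whole library's reads, members made up 0.236%, 0.263% and 0.212% in Klf5 LKO, against 0.292%, 0.372% and 0.272% in control libraries.

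**Figure D4:**
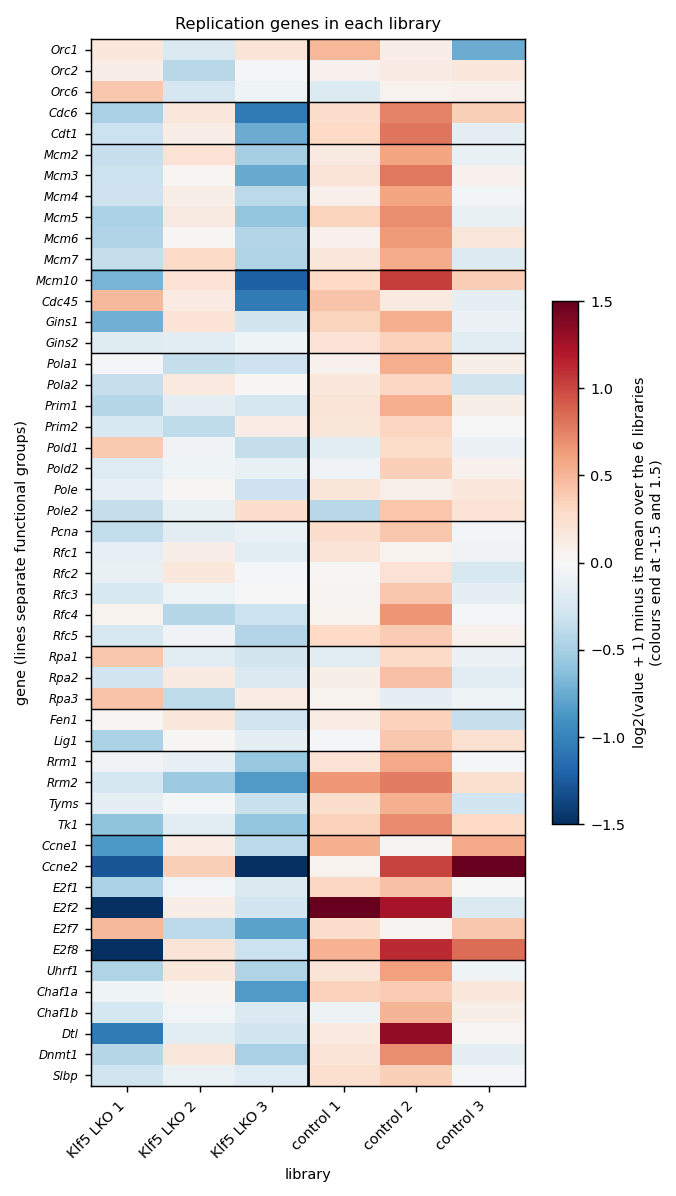
Colour shows log2(normalised count + 1) of each member in each library minus its mean over the 6 libraries, with red above and blue below that mean; members run down the page by role, and Klf5 LKO columns stand left of control columns. Control 2 is the highest library in 37 of 50 members, and Klf5 LKO 2 is the highest of its group in 33.

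Leukocyte markers varied in part with the groups. The 17 markers summed to 1854 to 3044 normalised counts in Klf5 LKO and 1870.5 to 5418 in control libraries, with between 2 and 7 of them at 0 in Klf5 LKO libraries and between 2 and 6 in control libraries. Ptprc, the pan-leukocyte gene, had 97.8, 12.7 and 34.1 in Klf5 LKO, against 326, 258 and 16.3 in control libraries, so that control 1 and control 2 were high and control 3 was among the low libraries. Of the 11 markers tested none was called by limma or DESeq2 and none had an unadjusted p under 0.05; the median log2 fold change was -1.27, and Csf1r, the most abundant, had -0.19 (adjusted p = 0.785). With the libraries' mean leukocyte log2 level as a further term, the median log2 fold change of the members stayed at -0.42, that of Rrm2 was -0.99 (adjusted p = 0.0953), and no member was called, against 0.289% of all tested genes called lower.

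Hepatocyte markers had mostly higher means in Klf5 LKO, in 8 of 9 tested, with a median log2 fold change of 0.63; Alb, the most abundant, was the exception at 7240 ± 1711 in Klf5 LKO and 8188 ± 1336 in control (SD, n = 3 each). Of the 9, Serpina1c and Ahsg rose in Klf5 LKO (adjusted p = 0.000512 and 0.0377), the call of Ahsg being lost without Klf5 LKO 1, Klf5 LKO 3, control 2 or control 3 (adjusted p between 0.0736 and 0.182); the summed level of the 10 listed was 18209.7 to 25309.7 in Klf5 LKO and 14744 to 20019.6 in control libraries, and their part in the member values was not tested. The 8 stellate and fibroblast markers summed to 9188 to 11474 in Klf5 LKO and 6906 to 6964 in control libraries, without overlap. Nearly all of that sum was Rgs5, listed here as a pericyte marker. It had 11394, 10427 and 9157 in Klf5 LKO, against 6917, 6959 and 6876 in control libraries (log2 fold change 0.57, adjusted p = 0.0592 in limma and 0.000194 in DESeq2). Which cells the Rgs5 RNA came from was not tested. The 3 markers tested all had higher means in Klf5 LKO (median log2 fold change 1.36) and none was called by limma, while Col1a2, Col3a1, Lrat and Des were listed at 0 in all 6 libraries. The part of these markers in the member values was not tested either.

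The other genes of the pathway were read from 3 lists, also chosen with earlier results of these data known. Of 44 further replication genes, Clspn, an adaptor of the checkpoint kinase Chk1 at stalled forks, fell to 49.3, 34.3 and 37.3 in Klf5 LKO, against 186, 177 and 149 in control libraries (log2 fold change -2.07, SE 0.36, adjusted p = 0.0252). That call was kept without Klf5 LKO 1 and lost without each of the other 5 libraries (adjusted p between 0.0551 and 0.162). No other gene of that list was called by limma; DESeq2 and the authors' deposited table each called Clspn and Asf1b, a histone chaperone, lower (adjusted p of Asf1b 0.0943 in limma, 0.0104 in DESeq2). Backgrounds of genes called lower were 0.489% in limma, 1.52% in DESeq2 and 1.51% in the authors' deposited table. On the log2 scale 38 of 44 had a lower mean, against 50.8% of all tested genes, and the median log2 fold change was -0.23. A further list of 16 held other E2F and retinoblastoma family genes with associated cell cycle genes of neither family, Ccna2 among them. Of the 16 none was called by limma and 1 was called by DESeq2 (Ccna2), and the median was -0.11. At an unadjusted p under 0.05, 3 had lower values, against 5.92% of all tested genes. The cyclin A gene Ccna2, which had the smallest p, had 158, 397 and 327 in Klf5 LKO, against 738, 1130.0 and 652 in control libraries (log2 fold change -1.57, adjusted p = 0.0555).

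The 30 mitosis genes had a median log2 fold change of -0.94. Lower means were found in 29, against 50.8% of all tested genes. In 22 genes every Klf5 LKO library was below every control library, against 7.88%. In that list limma called 5 genes lower and none higher, against backgrounds of 0.489% and 0.163%. DESeq2 and the authors' deposited table each called 13 lower and none higher, against backgrounds of 1.52% and 1.51% called lower. Ccnb1, the mitotic cyclin, averaged 289 ± 64.9 in Klf5 LKO and 708 ± 183 in control, Mki67, the proliferation marker, 1194 ± 119 in Klf5 LKO and 2300.5 ± 551 in control, and Kif23, a kinesin of cytokinesis, 309 ± 23.4 in Klf5 LKO and 669 ± 147 in control (SD, n = 3 each; adjusted p = 0.0322 for each). Their log2 fold changes were -1.28, -0.92 and -1.09. All 3 calls were kept without Klf5 LKO 1, that of Mki67 also without control 3, and all other left-out libraries ended them, with adjusted p up to 0.208. Whether the mitosis genes and the replication genes differ in their change was not tested.

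**Figure D5:**
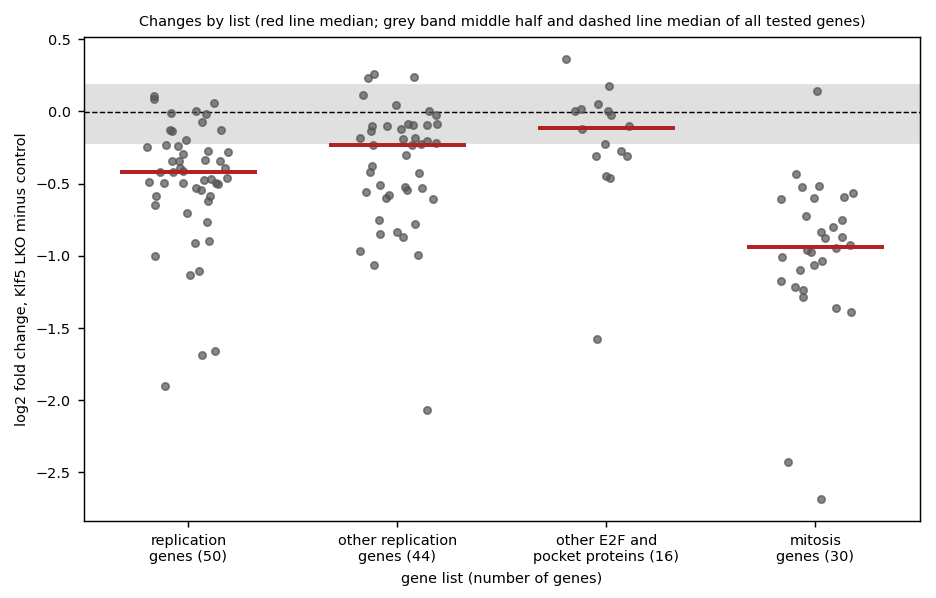
Log2 fold change, Klf5 LKO minus control, of the genes of 4 lists; points are genes, red lines are list medians, the dashed line is the median of all tested genes and the grey band runs between their quartiles (-0.22 and 0.19). The list medians are -0.42 for the 50 members, -0.23 for 44 other replication genes and -0.94 for 30 mitosis genes. The median is -0.11 for 16 other E2F, retinoblastoma family and associated cell cycle genes.

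E2F-type matches were more frequent in the members' promoters than in those of all tested genes. Windows of 250 bases before to 50 after the start were found for 43 of 50 members, and 17 of these (39.5%) held an E2F-type match on either strand, against 4.55% of the 10250 tested genes with a window. The cell cycle homology region element, searched as TTTGAA on both strands, was in 7 member windows (16.3%), against 14.1% of tested genes and 18 of 25 mitosis gene windows (72.0%). An E2F-type match was in 1 of the 25 mitosis windows (4%), near the 4.55% of tested genes. The CCAAT box, searched as ATTGG on both strands, was in 29 member windows (67.4%), against 42.6% of tested genes. Matches to GGGCGGG or GGGTGGG on both strands, the kind of site that KLF and SP factors bind, were in 31 member windows (72.1%), against 61.0% of tested genes. The median log2 fold change was -0.49 in the 17 members with an E2F-type match and -0.40 in the 26 without one, and the difference was not tested; a match is letters in a window and not a bound site.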

How the data were processed

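RNA of 3 Klf5 LKO and 3 control BEC preparations was made into cDNA from 4 ng with the SMARTer Ultra Low kit (10 cycles) and into single-end Nextera XT libraries (7 cycles), per the labels' protocols; neither kit marks strand. TopHat, Bowtie2, DESeq2 and mm10 are named in the submitters' processing notes; the tool for counting, its annotation and any filter were not given in the sources used here. The authors deposited a normalised signal per gene and library, which is a read count divided by a size factor, and, in a separate deposited table, log2 fold changes with p-values and adjusted p-values. Whole reads were recovered from the normalised values: 100% of values were whole multiples of 1 read's worth at a tolerance of 0.001.

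A gene was tested where its mean reached 10 across libraries (13490 of 24404). Values were analysed as log2(value + 1) with limma 3.58.1 (trend) in R 4.3.3, group as the sole term, and Benjamini-Hochberg adjustment over all tested genes at 0.05. A count test had been planned as an alternative, and edgeR 4.0.16, limma-voom and DESeq2 1.42.0 were run on the recovered reads. Fits were tested on simulated data in which only genes well above the minimum mean were changed. That test did not cover changes in genes as low as Ccne2 or E2f2. The added 1 pulls the log2 fold changes of low genes towards 0. In Ccne2, E2f2 and E2f8 the limma values were still further from 0 than those of DESeq2. They were -1.90, -1.69 and -1.66 in limma, against -1.75, -1.59 and -1.35 in DESeq2. A 95% interval is for the log2 fold change, with its error taken from the spread between libraries. In normalised counts, 3 reads were worth 2.24 to 3.19 in Klf5 LKO and 2.76 to 4.74 in control libraries.

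Positions and transcript lengths are from GENCODE M21, matched by symbol (23350 of 24404 genes, all 50 members), and promoters are from RefSeq. Exon bases shared with other genes were found in 20 members, and over 40% in 3. The members and lists were chosen with earlier results of these data known. Every member could be named; values of each library are given for the members with the smallest p in each role, and other lists name their called genes or those with the smallest p.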

Additional observations from a re-analysis of the deposited data

How the results depend on the processing

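The count of all called genes was 88 in limma, 346 with DESeq2 on the reads, 47 with a leukocyte term and between 14 and 105 when a library was left out. Members called lower numbered 1 in limma, 4 with DESeq2, 0 with the leukocyte term and between 0 and 1 when a library was left out. TMM or upper quartile scaling, another filter or pseudocount, edgeR and limma-voom left that count at 1, and no setting called a member higher. The members' median log2 fold change lay between -0.54 and -0.30, members with a lower mean between 42 and 48 and members without overlap between 19 and 33 when a library was left out, the last against 11.4% to 15% of all tested genes. A fit with the replicate number as a block called 110 genes. Members among them were 2, Rrm2 and Mcm3 (adjusted p = 0.0145 and 0.0451), against 0.615% of all tested genes called lower. As deviations from group means, same-numbered libraries correlated at 0.18, -0.01 and 0.11, and differently numbered ones between -0.20 and 0.14. Replicate 2 was the highest of its group in 33 members in Klf5 LKO and 39 in control. Replicate 3 was the lowest of its group in 22 in Klf5 LKO and 32 in control. These values do not decide whether the numbers are a pairing, and the main fit had no block.

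Some signs turned. Pold1 had log2 fold changes of 0.013 with DESeq2, 0.010 with edgeR, 0.023 with limma-voom and 0.014 with the leukocyte term. The log2 fold change of Rfc2 was -0.0019 with upper quartile scaling and -0.0026 with edgeR; Rpa1 had 0.026 and Fen1 0.0030 with the leukocyte term. With a library left out, log2 fold changes ran between -0.61 and 0.16 for Cdc45, -0.27 and 0.078 for Fen1, -0.26 and 0.36 for Orc1, -0.13 and 0.20 for Orc6, -0.30 and 0.019 for Pola2, -0.21 and 0.17 for Pold1, -0.38 and 0.036 for Pole2, -0.11 and 0.12 for Rfc2, -0.23 and 0.12 for Rpa1, -0.081 and 0.32 for Rpa3 and -0.34 and 0.030 for Csf1r. The cause was not tested. With 3 libraries a group, and E2f2, E2f8 and Ccne2 at few reads, members with wide intervals could differ without passing.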
